A study of Rattus norvegicus with 12 samples.

Results

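The keratins that mark the luminal and the basal layer of the mammary epithelium were examined in whole mammary glands of rats at PND21. The genes were listed by name for their known place in the epithelium, with Krt7, Krt8, Krt18 and Krt19 as the luminal set and Krt5, Krt14, Krt15 and Krt17 as the basal set. Of these 8 genes 6 were matched by Entrez identifier and symbol among the 16511 genes of the count table, and Krt5 and Krt7 were not analysed here. All 12 libraries of the series were used. They came from 6 glands of offspring of dams on the high fat butter (HFB) diet and 6 glands of offspring of dams on the control (CTL, AIN) diet, with 1 snap-frozen gland taken per litter. According to the study's methods the animals were SD rats, the offspring received the AIN diet after birth, and the sample labels name no strain and no other agent. Those methods describe RNA sequencing of laser-captured epithelia from offspring with and without bisphenol A, whereas the labels of these 12 libraries name mammary glands of the HFB and CTL diets, and the libraries are taken here as whole glands after the labels. The sources differ on the days at which the HFB diet began and ended, and the series text has it run past birth while also giving the newborns AIN alone. The labels call the exposure prenatal, and its window is not settled here. A whole gland at weaning is mostly fat with a small epithelial tree, together with vessels, muscle, skin remnants and lymphoid tissue, and in bulk samples fewer cells of a type and less RNA per cell cannot be told apart.

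Keratins are the intermediate filament proteins of epithelial cells. A filament is built from pairs of a type I and a type II keratin, and the pair in use differs between cell layers. In the mammary ducts the luminal cells that face the lumen contain the type II keratins Krt8 and Krt7 with the type I keratins Krt18 and Krt19, whereas the basal and myoepithelial cells that rest on the basement membrane contain the type II keratin Krt5 with the type I keratins Krt14, Krt15 and Krt17. The basal set is not limited to the gland, since the basal layer of the epidermis and the outer root sheath of the hair follicle contain the same proteins.

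Total counts per library ranged from 2320267 to 2760871 in the HFB group, with a median of 2660268, while CTL libraries held 2403464 to 2944680. Values are given in CPM (counts scaled to a common library size) after TMM normalization. The detection limit was set at 3 counts, which at these depths stood for 1.02 to 1.29 CPM before that scaling and covers counting error only. Each of the 6 keratins was above it in every library, with the lowest values at 4 counts for Krt14 and 6 counts for Krt17, both in HFB 1. Libraries are named by their diet and their library number. Transcript lengths were not used here, so levels are compared between libraries for the same gene and not between keratins.

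Krt8 (gene 25626) and Krt18 (gene 294853) encode the partners of the same luminal filament, and in RefSeq's gene order on GRCr8 they are direct neighbours on chromosome 7, between Krt78 and Eif4b. Because their transcripts rose and fell together between glands, as described below, a stretch of each promoter is shown, taken from RefSeq on the GRCr8 build, whereas the submitters' processing notes name rn4 for the counts. Promoters of 3 of the 8 keratins matched, the third being that of Krt5. Each stretch holds 100 bases in the direction of the gene, ends 10 bases after a TATAA motif and lies wholly before the annotated start of the gene, at chr7:135010429-135010528 on the minus strand for Krt8 and at chr7:135036041-135036140 on the plus strand for Krt18. Capitals mark the motifs TATAA and GGGCGG.
Krt8: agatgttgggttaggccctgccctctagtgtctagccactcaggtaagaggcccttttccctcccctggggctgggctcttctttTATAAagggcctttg
Krt18: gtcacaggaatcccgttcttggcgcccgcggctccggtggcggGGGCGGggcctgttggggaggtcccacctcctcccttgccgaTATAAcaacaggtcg
The TATAA motif began 104 bases before the annotated start of Krt8, where TTATA, the same motif on the opposite strand, overlapped it, and 42 bases before that of Krt18. GGGCGG was found 84 bases before the start of Krt18, and neither it nor CCGCCC, its form on the opposite strand, was present in the 300 bases of the Krt8 promoter. Counted on both strands, TATAA occurred in 26.2% and GGGCGG in 33.1% of 33469 rat promoters of the same length. A match of letters is a description of the window and not a binding site.

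No luminal keratin passed the adjusted threshold between the diets, and the median of each was lower after HFB than after CTL. Krt8, the type II keratin of simple epithelia, lay between 41.7 CPM (HFB 3) and 222 CPM (HFB 6) in the HFB group with a median of 83.0 CPM, and between 50.4 CPM (CTL 9) and 192 CPM (CTL 14) in the CTL group with a median of 119 CPM. The diets overlapped, and the HFB glands were the more widely scattered, with 2 below the lowest CTL gland, 2 above the highest and 2 within the CTL range. The means were 113 ± 81.1 CPM (SD, n = 6) and 114 ± 50.5 CPM (SD, n = 6). The log2 fold change, HFB over CTL, was -0.012 (standard error 0.46, 95% interval -0.997 to 0.97; edgeR, adjusted p = 0.999 after Benjamini-Hochberg adjustment over all genes tested). Its sign was positive, at 0.00098, when DESeq2's size factors replaced TMM. It was also positive in 6 of the 12 fits without 1 library and, at 0.68, with Epcam as a covariate. The direction of each of the 6 keratins was reversed in some settings, as given below.

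Krt18, the type I partner of Krt8, had 14 CPM in HFB 3, a median of 48.5 CPM and 174 CPM in HFB 6 after the HFB diet. After the CTL diet it had 33.9 CPM in CTL 9, a median of 73.2 CPM and 142 CPM in CTL 14. Of the HFB glands 3 were under the lowest CTL gland and 1 was over the highest, so the lowest and the highest Krt18 levels of the series both came from HFB glands. The log2 fold change was -0.18 (standard error 0.55, 95% interval -1.37 to 1.02; edgeR with Benjamini-Hochberg adjustment, adjusted p = 0.999). Krt19 (gene 360626), the small type I keratin of ductal luminal cells, ranged from 16.5 CPM (HFB 1) to 111 CPM (HFB 6) around a median of 43.7 CPM in the HFB group. In the CTL group it ranged from 30.0 CPM (CTL 9) to 115 CPM (CTL 14) around a median of 70.6 CPM. The same 3 HFB glands, HFB 1, HFB 2 and HFB 3, were under the CTL range for both Krt18 and Krt19. The log2 fold change of Krt19 was -0.21 (standard error 0.49, 95% interval -1.27 to 0.85; edgeR with Benjamini-Hochberg adjustment, adjusted p = 0.999).

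Over all glands the basal keratins had a wider range of levels than the luminal ones. HFB 1, the lowest gland for each basal keratin, widened that range. Without it Krt14 and Krt15 spanned a smaller fold than Krt18. Krt14 (gene 287701), the type I partner of Krt5 in myoepithelium and in the basal layer of skin, was at 1.65 CPM in HFB 1, at a median of 22.6 CPM and at 56.9 CPM in HFB 6 in the HFB group. In the CTL group it was at 5.65 CPM in CTL 9, at a median of 20.6 CPM and at 57.1 CPM in CTL 14. All HFB glands except HFB 1 lay inside the CTL range. For Krt14 the log2 fold change was -0.16 (standard error 0.63, 95% interval -1.51 to 1.20; edgeR with Benjamini-Hochberg adjustment, adjusted p = 0.999).

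Krt15 (gene 287700), a type I keratin of basal cells and of the hair follicle bulge, had its lowest HFB level of 7.40 CPM in HFB 1, a median of 30.6 CPM and its highest of 134 CPM in HFB 6. The CTL glands had 14.3 CPM in CTL 9, a median of 54.2 CPM and 119 CPM in CTL 14. The ranges overlapped, with 1 HFB gland under and 1 over all CTL glands. The log2 fold change was -0.15 (standard error 0.62, 95% interval -1.48 to 1.18; edgeR with Benjamini-Hochberg adjustment, adjusted p = 0.999). Krt17 (gene 287702), a type I keratin of hair follicle sheath, nail bed and basal-type cells, ran from 2.47 CPM (HFB 1) over a median of 22.9 CPM to 67.8 CPM (HFB 6) in the HFB group. In the CTL group it ran from 4.78 CPM (CTL 9) over a median of 25.3 CPM to 81.7 CPM (CTL 14). HFB 1 was under the CTL range for Krt17 too, and the other 5 HFB glands were inside it. The log2 fold change was -0.28 (standard error 0.69, 95% interval -1.78 to 1.22; edgeR with Benjamini-Hochberg adjustment, adjusted p = 0.999). Krt14, Krt16 and Krt17 are near-identical in sequence over long stretches, and Krt18 has processed copies elsewhere in the genome, so reads of these genes could have been split or lost in counting and their counts are uncertain to that extent.

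**Figure D1:**
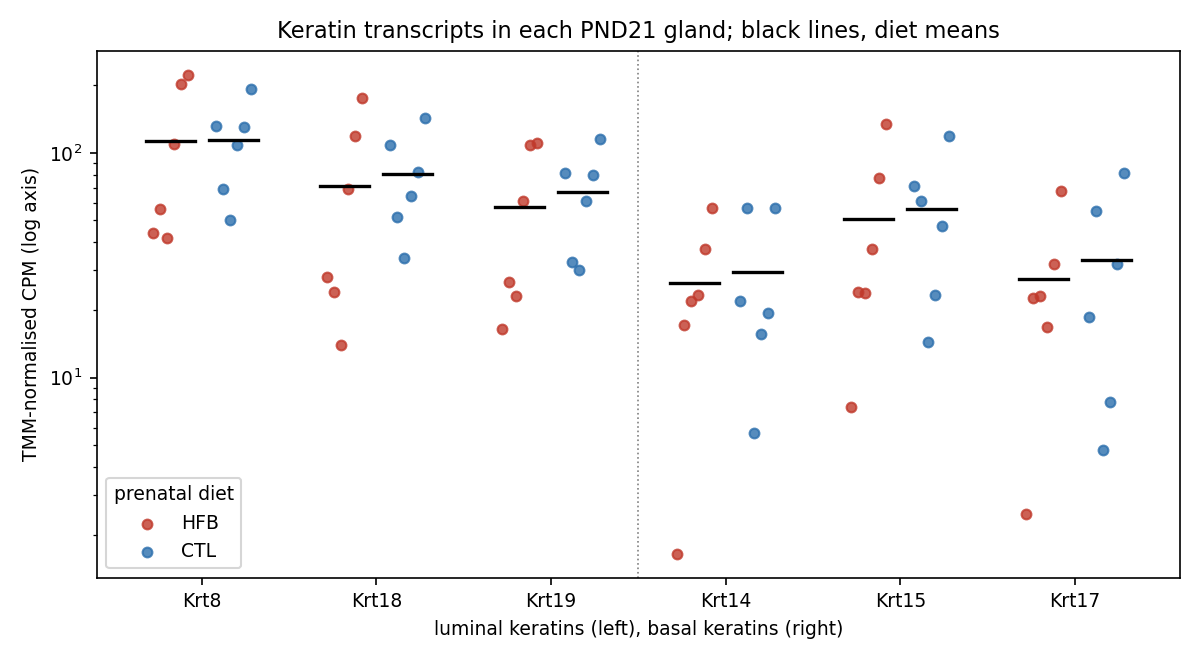
Level of each keratin in each gland, in TMM-normalised CPM on a log axis, with HFB glands in red, CTL glands in blue and the mean of each diet as a black line. The diets overlap for all 6 keratins, and the low point of 1.65 CPM for Krt14 is HFB 1.

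Of the 6 keratins 0 had an adjusted p under 0.05, against 0% of the 9382 genes tested, 0 had an unadjusted p under 0.05, against 2.34% of all genes tested, and 0 had diets that did not overlap, against 0.107% (edgeR's quasi-likelihood test, Benjamini-Hochberg adjustment). The unadjusted p-values of the keratins in that fit ran from 0.673 for Krt19 to 0.980 for Krt8. The 95% intervals of all 6 held 0 and reached at least 0.85 upward and -0.997 downward on the log2 scale. The 220 genes with an unadjusted p under 0.05 were 122 higher and 98 lower after HFB with TMM, and 25 higher and 198 lower of 223 with scaling by total counts, which shifted the median log2 fold change of all genes to -0.097. DESeq2 gave 0 genes with an adjusted p under 0.05 and 271 with an unadjusted p under 0.05. In limma voom with sample quality weights 0 and 613 of the 9382 genes passed, the latter a larger share than the 220 of edgeR. Of the 6 keratins 1, Krt18, was among the 613, with a log2 fold change of -1.11 (unadjusted p = 0.0228, adjusted p = 0.719 after Benjamini-Hochberg). In that fit Krt8 was at -0.58 and Krt19 at -0.81, and the weights of the libraries with the highest luminal keratin levels were low, at 0.124 for HFB 6, 0.181 for CTL 14 and 0.371 for HFB 5, against 1.15 to 2.71 for the other 9 libraries.

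Keratin levels differed widely between single glands. Between the lowest and the highest gland the level rose 34.7-fold for Krt14, 33.1-fold for Krt17, 18.1-fold for Krt15, 12.4-fold for Krt18, 7.0-fold for Krt19 and 5.33-fold for Krt8. The lowest gland for Krt14, Krt15 and Krt17 was HFB 1. The next lowest, CTL 9, had 5.65, 14.3 and 4.78 CPM of them. Without HFB 1 the folds of all of these were smaller, and those of Krt14 and Krt15 were under that of Krt18. The SD of log2(CPM + 1) within a diet was 0.90 for Krt8, 0.98 for Krt19, 1.12 for Krt18, 1.25 for Krt15, 1.38 for Krt14 and 1.47 for Krt17, where the median gene had 0.40. Thus 90.1% of the genes tested were less variable within a diet than Krt8, the least variable of the 6, and 98.3% were less variable than Krt17. The same glands stood at the ends for most keratins. HFB 1 was among the 3 lowest glands for 6 of 6 keratins, CTL 9 for 4 and HFB 3 and CTL 10 for 3 each. HFB 6 and CTL 14 were among the 3 highest for 6 of 6 keratins, and HFB 5 for 4. CTL 8 broke this order, with luminal levels under the CTL median (Krt8 68.8 CPM, Krt18 51.8 CPM) and with Krt14 at 56.9 CPM and Krt17 at 54.9 CPM, each among the 3 highest of the series.

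**Figure D2:**
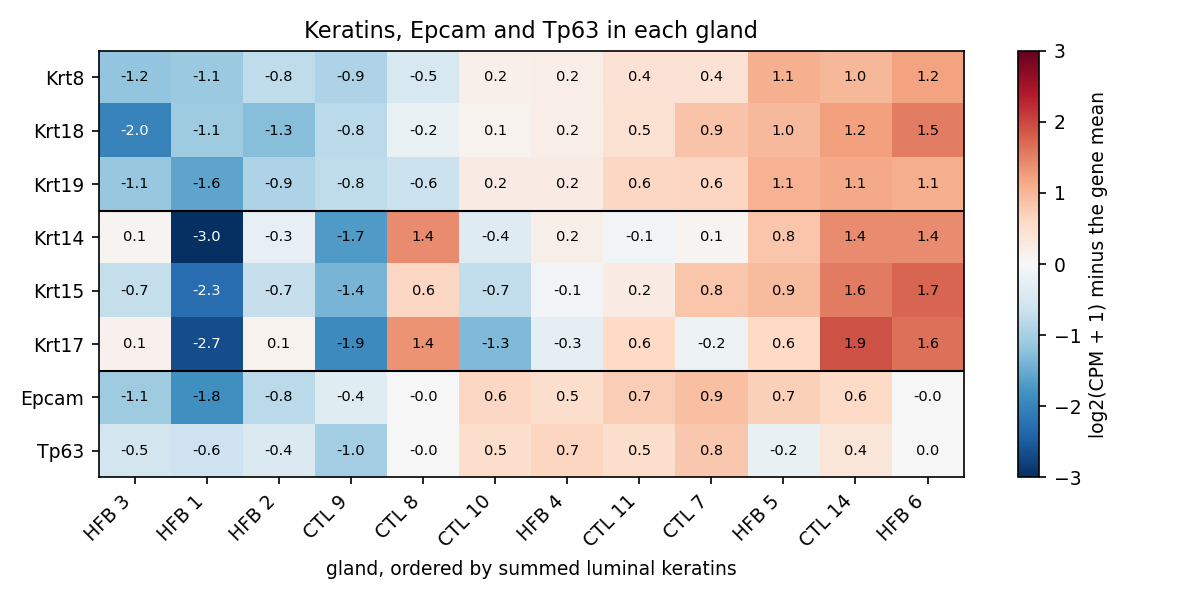
log2(CPM + 1) of the 6 keratins, Epcam and Tp63 in each gland, minus the mean of the gene over 12 glands, with glands ordered from left to right by the summed luminal keratins. The upper block holds the luminal and the middle block the basal keratins, and HFB 3, HFB 2 and CTL 8 on the left have basal values closer to or above the gene means than HFB 1 and CTL 9.

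HFB 1, HFB 6 and CTL 14 also stood apart in their lymphoid genes. Of the 8 genes in the lymphoid list 7 were analysed, the most abundant being Ptprc, the common leukocyte phosphatase, and their summed level was 1084 CPM in CTL 14, 870 CPM in HFB 6, 335 CPM in HFB 1 and 155 CPM in HFB 2. In the other 8 libraries it lay between 17.0 CPM (CTL 8) and 73.0 CPM (CTL 9). Of the analysed genes 5 were at 0 counts in 1 library each. Of the 3 that passed the filter Ptprc had a log2 fold change of 0.054, Cd79b, a B cell receptor component, of 0.31 and Cd3g, a T cell receptor component, of 0.34 between the diets, each with adjusted p = 0.999 (edgeR, Benjamini-Hochberg adjustment). All 3 were higher after HFB with TMM, where 4694 of all 9382 genes were, and 2 of 3 were with scaling by total counts. The glands richest in lymphoid genes were thus at both ends of the keratin levels, CTL 14 and HFB 6 at the top and HFB 1 at the bottom. The part of lymphoid tissue in these levels was not tested.

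The luminal keratins of the gland, Krt8, Krt18 and Krt19 together, summed to 78.8 CPM (HFB 3) at the lowest, 173 CPM at the median and 508 CPM (HFB 6) at the highest after HFB, and to 114 CPM (CTL 9), 263 CPM and 449 CPM (CTL 14) after CTL. The basal keratins Krt14, Krt15 and Krt17 summed to 11.5 CPM (HFB 1), 73.0 CPM and 259 CPM (HFB 6) after HFB and to 24.8 CPM (CTL 9), 105 CPM and 258 CPM (CTL 14) after CTL. Both sums overlapped between the diets over most of their range. The luminal to basal ratio, the luminal sum over the basal sum with 0.5 CPM added to each, was 1.15 in HFB 3, 2.44 at the HFB median and 7.40 in HFB 1, and 0.886 in CTL 8, 2.92 at the CTL median and 4.95 in CTL 10. On the log2 scale it was 1.33 ± 0.93 (SD, n = 6) after HFB and 1.37 ± 0.93 (SD, n = 6) after CTL, a difference of -0.041 that was small beside the spread between glands of 1 diet. No test was made of this ratio, since it is a score over genes chosen with earlier results known. The narrower ratio of Krt8 plus Krt18 over Krt14 was 2.9 ± 1.24 (SD, n = 6) after HFB and 2.95 ± 1.01 (SD, n = 6) after CTL on the log2 scale. Its lowest values were in CTL 8 (1.08) and HFB 3 (1.33) and its highest was in HFB 1 (5.08), where Krt14 had 4 counts. The sign of the difference between the diets in the wider ratio was reversed without HFB 2 (0.077), HFB 3 (0.18), HFB 6 (0.030), CTL 9 (0.12) or CTL 10 (0.15). That difference was -0.35 without HFB 1 and -0.35 without CTL 8. For the narrower ratio the difference ran from -0.48 to 0.26 when each library was left out, and its sign was reversed in 6 of 12 cases.

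**Figure D3:**
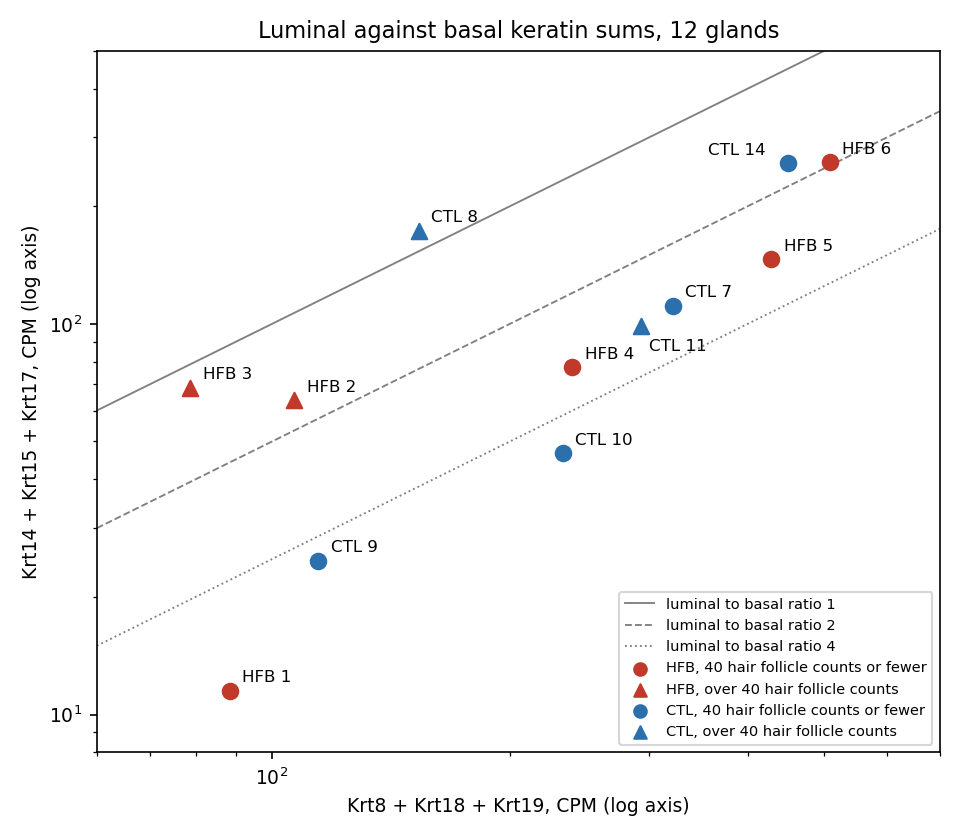
Summed basal keratins (vertical, CPM) against summed luminal keratins (horizontal, CPM) in each gland, both on log axes, with lines at ratios of 1, 2 and 4. Triangles are the 4 glands with over 40 counts of hair follicle genes, and of these CTL 8, HFB 3 and HFB 2 have ratios of 0.886, 1.15 and 1.67, lower than those of the other 9 glands.

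Within each set the proportions of the keratins to each other varied less than their levels. Krt19 counts were 0.374 (HFB 1) to 0.554 (HFB 4) of the Krt8 counts after HFB, with a median of 0.517, and 0.477 (CTL 8) to 0.619 (CTL 7) after CTL, with a median of 0.597. Krt18 counts were 0.336 (HFB 3), 0.609 at the median and 0.784 (HFB 6) of the Krt8 counts after HFB, and 0.595 (CTL 10), 0.707 and 0.829 (CTL 7) after CTL. HFB 2 (0.427) and HFB 3 (0.336) thus had less Krt18 per Krt8 than any of the other 10 glands, and the diets overlapped. Among the basal keratins Krt15 counts were 1.09 (HFB 3), 1.83 and 4.50 (HFB 1) times the Krt14 counts after HFB, and 1.08 (CTL 8), 2.26 and 3.25 (CTL 7) times after CTL. Krt17 counts were 0.723 (HFB 4), 1.12 and 1.5 (HFB 1) times those of Krt14 after HFB and 0.50 (CTL 10), 0.910 and 1.65 (CTL 11) times after CTL. The high value of HFB 1 for Krt15 rested on 18 counts of Krt15 and 4 of Krt14, and its value for Krt17 on 6 counts of Krt17 and the same 4 of Krt14.

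Whether the keratins varied together was asked by the correlation of log2(CPM + 1) over the 12 libraries, for 15 keratin pairs and for each keratin with Epcam, an epithelial adhesion gene that had no part in choosing the genes. Of these 21 relations 18 had an adjusted p under 0.05 by Pearson's r and 17 by Spearman's rho (two-sided permutation tests, 100000 resamples, Benjamini-Hochberg over the 21 relations). Such values were common in these glands: of all pairs among 9326 genes, 14.4% had an r of at least 0.605, the lowest called here, and 6.48% a rho of at least 0.615, so a call alone sets no keratin pair apart. The luminal keratins followed each other closely, with an r of at least 0.938, a value reached by 0.294% of all pairs. Krt8 and Krt18 had r = 0.962 and rho = 0.972 (permutation p = 1e-05 for both, the smallest the resampling can give, adjusted p = 5.25e-05 and 0.000105), with r = 0.975 within HFB, 0.971 within CTL and 0.961 without HFB 1 and HFB 3. Krt8 and Krt19 had r = 0.982 (permutation p = 1e-05, adjusted p = 5.25e-05) and rho = 0.958 (permutation p = 2e-05, adjusted p = 0.00014), and Krt18 and Krt19 had r = 0.938 and rho = 0.965. Without the glands farthest from the median these were 0.984 and 0.960 for r.

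The basal keratins also followed each other, with an r of at least 0.902, reached by 0.949% of all pairs. Krt14 and Krt17 had r = 0.946 (permutation p = 1e-05, adjusted p = 5.25e-05) and rho = 0.895 (permutation p = 0.00026, adjusted p = 0.00137), with r = 0.883 without HFB 1 and CTL 9. Krt14 and Krt15 had r = 0.915 and rho = 0.881, and Krt15 and Krt17 had r = 0.902 and rho = 0.867. Reads shared between Krt14, Krt16 and Krt17 could raise the first of these relations, and their part in it was not tested. Between the sets the relations were looser, from r = 0.537 for Krt17 with Krt18 to 0.852 for Krt15 with Krt8, with a median of 0.661, which 11.4% of all gene pairs reached, so these values are not a result about the keratins. Of the 9 relations 7 had an adjusted p under 0.05 by r and 8 by rho. By r, 0 of the 9 did without the libraries high in lymphoid genes, and 9 did without those high in hair follicle genes. Both sets of libraries were chosen after the data had been seen. Krt15 was nearer to the luminal keratins than Krt14 and Krt17 were in these values, with r = 0.852, 0.817 and 0.851 for Krt8, Krt18 and Krt19, against 0.661, 0.580 and 0.671 for Krt14 and 0.617, 0.537 and 0.612 for Krt17, a difference that was not tested. Without HFB 1 and CTL 9, the glands farthest from the median of Krt14 and of Krt17, the r of Krt14 with the luminal keratins was between 0.382 and 0.515 and that of Krt17 between 0.306 and 0.393. The smallest difference was that of Krt14 with Krt18, from 0.580 to 0.515. Leaving out extreme glands can by itself lower r, though it did not for Krt8 with Krt19 or for Krt18 with Krt19. For Krt15, without HFB 1 and HFB 6, r was 0.751 to 0.788.

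Epcam followed the luminal keratins, with r = 0.792 for Krt8, 0.780 for Krt18 and 0.866 for Krt19, the last with rho = 0.776 (permutation p = 0.00031 and 0.00456, adjusted p = 0.00093 and 0.00958) and with r = 0.749 without HFB 1 and HFB 3. Its relations to the basal keratins were weaker, with r = 0.605, 0.697 and 0.466 for Krt14, Krt15 and Krt17, and by r 2 of these 3 had an adjusted p under 0.05 (Krt14 and Krt15), and by rho 0 of 3 did with TMM, whereas with scaling by total counts 1 did, Krt15 (rho = 0.720, permutation test, adjusted p = 0.0165). Without HFB 1 and CTL 9 the r of Krt14 with Epcam was 0.0835 and that of Krt17 was -0.0619, whereas that of Krt15 was 0.627 without HFB 1 and HFB 6. The Epcam level itself was 13.6 CPM (HFB 1), 40 CPM at the median and 85.1 CPM (HFB 5) after HFB and 40 CPM (CTL 9), 78.6 CPM and 96.8 CPM (CTL 7) after CTL. It was under the CTL median in 5 of 6 HFB glands, and the log2 fold change of -0.63 (standard error 0.39) gave adjusted p = 0.999 (edgeR, Benjamini-Hochberg adjustment). Counts of Krt8 per count of Epcam were 1.47 (HFB 4), 2.16 and 4.34 (HFB 6) after HFB and 1.26 (CTL 9), 1.36 and 2.47 (CTL 14) after CTL. With Epcam as a covariate in the fit, the sign of all 6 keratins was reversed, from 0.26 for Krt17 to 0.68 for Krt8. The unadjusted p was 0.0532 for Krt8, and 0 genes had an adjusted p under 0.05 (edgeR's test, Benjamini-Hochberg adjustment). Because Epcam was itself lower after HFB and had a positive r with each keratin, adding it by itself moves the keratin values up. The reversal is thus not a separate result about the keratins.

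The table held 40 further keratin genes, and most of them were near or under the detection limit. Of these 17 had a mean of 3 counts or more per library, 2 had 0 counts in all libraries (Krt9 and Krt24) and 2 passed the filter of the test. Krt75, a type II keratin of the hair follicle companion layer, had 5 to 42 counts and a difference of -0.42 (log2, standard error 0.44) between the diets, and Krt10, the type I keratin of differentiating epidermis, had 9 to 21 counts and a difference of -0.24 (standard error 0.26), each with adjusted p = 0.999 (edgeR, Benjamini-Hochberg adjustment). Krt16, the close relative of Krt14 and Krt17, had at most 21 counts, in CTL 8. Krt23, Krt42, Krt80 and Krt90 had 92, 68, 46 and 59 counts over the 12 libraries. Krt1, an epidermal type II keratin, had 51 counts and at most 11 in a library, and Krt77 had 41. The remaining 8 of the 17, namely Krt25, Krt27, Krt35, Krt72, Krt73, Krt81, Krt83 and Krt87, are keratins of the hair shaft or its sheaths, and all of them had their highest count in CTL 11.

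Hair follicle genes were unevenly spread over the glands. Of the 8 genes in the hair follicle list, 6 were analysed (Krt25, Krt27, Krt28, Krt35, Krt73 and Krt85), Krt25, an inner root sheath keratin, was the most abundant, and none passed the filter of the test. Their summed level was 71.2 CPM in CTL 11, 28.3 CPM in HFB 2, 22.5 CPM in CTL 8, 17.9 CPM in HFB 3, 8.59 CPM in HFB 4, 8.12 CPM in HFB 5, 1.90 CPM in CTL 7 and 0.870 CPM in CTL 9. In HFB 1, HFB 6, CTL 10 and CTL 14 all 6 genes were at 0 counts. Krt25 alone had 83 counts in CTL 11, 35 in HFB 2, 25 in CTL 8 and 15 in HFB 3. The 3 glands with the lowest luminal to basal keratin ratio, CTL 8, HFB 3 and HFB 2, were among the 4 with over 40 counts of these genes, whereas CTL 11, with the most, had a ratio of 2.96, close to the median of 2.9. The 3 glands with the highest ratio, HFB 1, CTL 10 and CTL 9, had 0, 0 and 2 counts of them. CTL 14 and HFB 6 also had 0 counts of them but came next after the lowest 3, with ratios of 1.74 and 1.96, so low ratios were found with and without hair follicle genes. The share of Krt14, Krt15 and Krt17 transcripts that came from hair follicles was not tested.

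**Figure D4:**
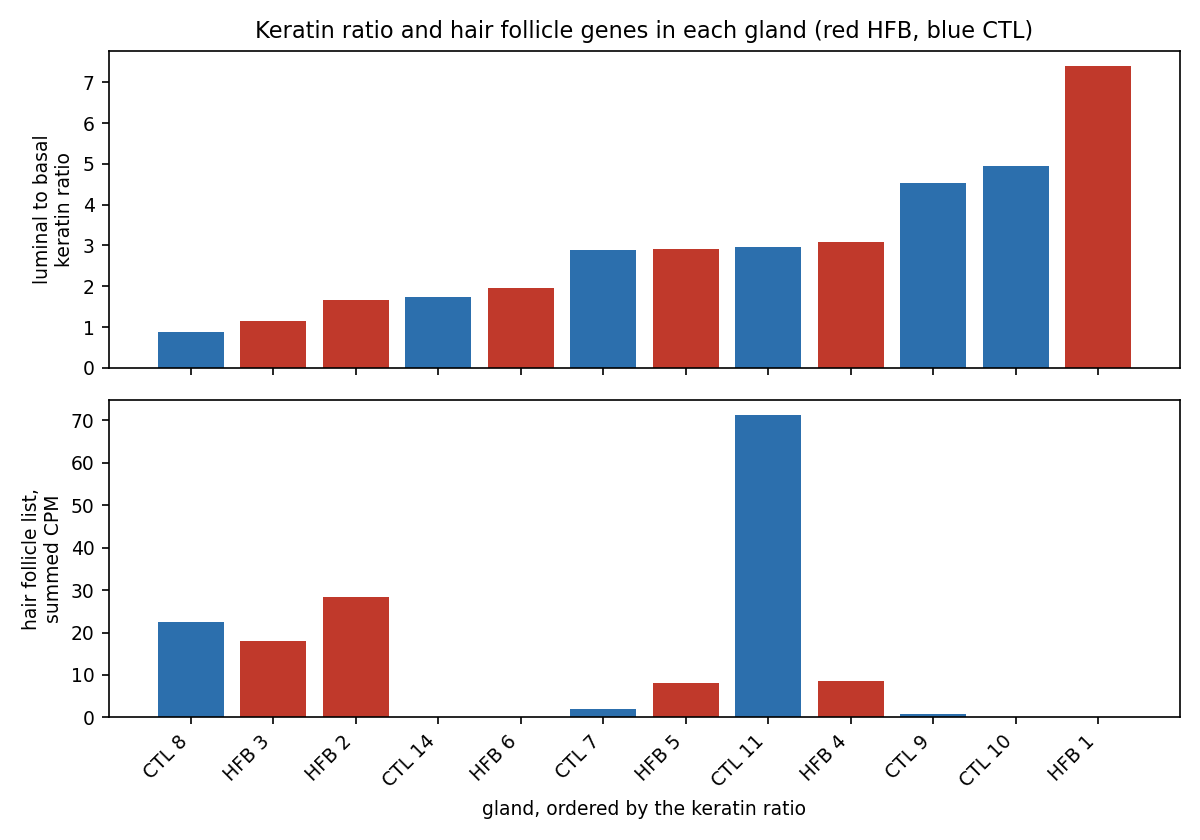
Luminal to basal keratin ratio (upper bars) and summed CPM of the 6 hair follicle genes (lower bars) in each gland, ordered by the ratio, with HFB in red and CTL in blue. Red and blue bars are mixed along the order of the ratio, and CTL 8, HFB 3 and HFB 2 on the left carry 22.5, 17.9 and 28.3 CPM of hair follicle genes.

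The r between basal and luminal keratins changed with the glands included. It is given here as a description, because the glands left out were chosen after the data had been seen. Counts of relations called over the remaining glands are given with the other settings, and no conclusion is drawn from them. Over the 8 glands without HFB 2, HFB 3, CTL 8 and CTL 11, those with over 40 counts of hair follicle genes, the 9 pairs of a basal and a luminal keratin had an r between 0.925 and 0.989, with a median of 0.962. Krt14 and Krt18, for example, had r = 0.963 and rho = 0.952 there, against r = 0.580 over all 12. This choice took out the 3 glands with the lowest luminal to basal ratio, which can by itself raise r. Over the 9 glands without CTL 14, HFB 6 and HFB 1, those with the most counts of lymphoid genes, the 9 r between the sets lay between 0.123 and 0.727, with a median of 0.307. That choice took out the highest and the lowest gland for all 3 basal keratins, and a narrower range can by itself lower r. Hair follicle and lymphoid content as the source of either change cannot be told apart from these effects of the choice. Among the luminal keratins r was at least 0.968 over the 8 glands and at least 0.942 over the 9 glands. Among the basal keratins it was at least 0.958 over the 8 and between 0.734 and 0.887 over the 9, with rho between 0.700 and 0.750 there. Epcam and the luminal keratins had r between 0.921 and 0.973 and rho between 0.917 and 0.950 over the 9 glands. Over the 8 glands r was between 0.702 and 0.839 and rho between 0.429 and 0.524, and without HFB 1 and CTL 9 the r of Epcam with Krt8, Krt18 and Krt19 was -0.458, -0.437 and -0.287.

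**Figure D5:**
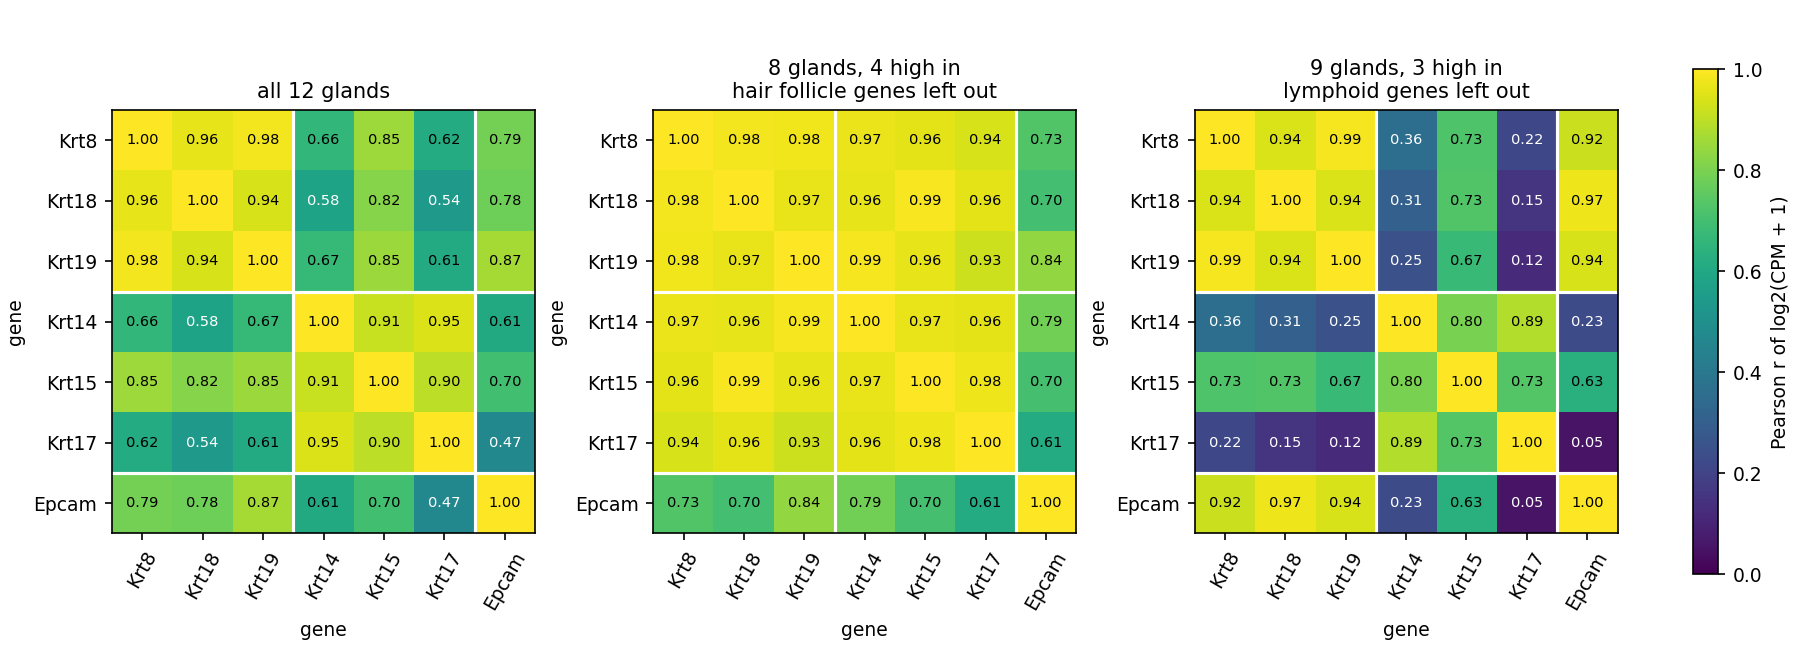
Pearson r of log2(CPM + 1) for each pair of the 6 keratins and Epcam, over all 12 glands (left), over 8 glands without the 4 highest in hair follicle genes (middle) and over 9 glands without the 3 highest in lymphoid genes (right), on a colour scale from 0 to 1. The block of basal against luminal keratins runs from 0.537 to 0.852 on the left, from 0.925 to 0.989 in the middle and from 0.123 to 0.727 on the right.

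Epidermal genes were counted beside the keratins. Of the 11 genes in the epidermis list 6 were analysed and 2 passed the filter, and Sbsn, a gene of the upper epidermis, was the most abundant. Their sum was 6.0 CPM (HFB 2), 13.7 CPM and 19.7 CPM (HFB 5) after HFB and 10.6 CPM (CTL 14), 20.1 CPM and 37.5 CPM (CTL 8) after CTL. Ivl, a defining gene of the cornified layer, had 2 counts over all libraries and 0 in 10 of them. Between the diets Sbsn differed by -1.11 on the log2 scale (standard error 0.60, adjusted p = 0.999, edgeR with Benjamini-Hochberg adjustment). CTL 8, with the highest sum, was also among the 3 highest glands for Krt14 and Krt17, and the part of skin in those levels was not tested.

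Other genes of the luminal layer were read beside the keratins. Of the 20 genes in the luminal epithelium list, without keratins, 13 passed the filter, 0 passed the adjusted threshold, 11 were lower and 2 higher after HFB, where 4688 of all 9382 genes were lower, and their median log2 fold change was -0.21, against 0.00018 over all genes tested. With scaling by total counts, which put the median of all genes at -0.097, 12 were lower and 1 was higher. The most abundant were Spint2, a protease inhibitor, at 92.7 ± 59.9 and 102 ± 54.1 CPM (SD, n = 6) after HFB and CTL, Epcam, and Cdh1, the epithelial cadherin, at 30.1 ± 17.7 and 46.5 ± 15.5 CPM (SD, n = 6). Between the diets Cdh1 differed by -0.63 on the log2 scale (standard error 0.39). Cdh1 and Epcam were named for the smallest p of the list, so their larger difference beside the 6 keratins follows from that choice. The median of the list lay within the range of the log2 fold changes of the keratins. A difference between the list and the keratins was not tested. Cldn3 had 0 counts in all libraries. The r of the 13 genes with the mean of the 3 luminal keratins ran from 0.363 to 0.959, with a median of 0.881. For 11 of them it was higher than the r with the basal keratins.

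Of the 15 genes in the basal and myoepithelial list, without keratins, 13 were analysed and passed the filter, 0 passed the adjusted threshold and 1, Mylk, had an unadjusted p under 0.05, where 2.34% of all genes did. In this list 11 genes were lower and 2 higher after HFB, where 4688 of all 9382 genes were lower, and the median log2 fold change was -0.24. Genes of a list share the mixture of tissues in each gland, so these counts are not counts of separate results. With scaling by total counts, which put the median of all genes at -0.097, 13 were lower. Mylk, the myosin light chain kinase of contractile cells, was at 71.9 ± 25.0 CPM (SD, n = 6) after HFB and 106 ± 31.0 CPM (SD, n = 6) after CTL, a log2 fold change of -0.56 (standard error 0.25, adjusted p = 0.999, edgeR with Benjamini-Hochberg adjustment). Col17a1, a hemidesmosome collagen of basal cells, had -0.63 (standard error 0.30), and the abundant genes Mme, Myh11 and Itga6 had 0.044, -0.51 and -0.19. Tp63, the transcription factor of basal epithelial cells, was at 5.04 ± 2.26 CPM (SD, n = 6) and 7.08 ± 2.89 CPM (SD, n = 6), with a log2 fold change of -0.49 (standard error 0.36). Across the 12 glands 12 of these 13 basal genes had a higher r with the luminal than with the basal keratins, with medians of 0.738 and 0.625 and with r to the luminal keratins from -0.649 to 0.966, given as a description. Mme (-0.649 and -0.614) and Oxtr (-0.599 and -0.632) had negative r with both sets. Counts of Krt14 per count of Tp63 ran from 0.50 (HFB 1) to 10.1 (HFB 6) after HFB and from 1.83 (CTL 10) to 10.3 (CTL 8) after CTL. The value of HFB 1 rested on 4 counts of Krt14 and 8 of Tp63.

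Keratin filaments are held at desmosomes and hemidesmosomes by the proteins of the keratin anchoring list, of whose 15 genes 11 were analysed and 8 passed the filter. None passed the adjusted threshold. After HFB 6 were lower and 2 higher, where 4688 of all 9382 genes were lower, and the median log2 fold change was -0.26. With scaling by total counts, which put the median of all genes at -0.097, 7 were lower. Jup, the plakoglobin of desmosomes, was at 153 ± 64.1 and 168 ± 41.4 CPM (SD, n = 6), a log2 fold change of -0.13, Plec, the plectin linker, had 0.15 and Ppl, periplakin, had -0.39. The smallest p belonged to Pkp1, a plakophilin of stratified epithelia (log2 fold change -0.86, standard error 0.49), and Perp, a desmosome gene (-0.61, standard error 0.36), each with adjusted p = 0.999 (edgeR, Benjamini-Hochberg adjustment). Across the 12 glands 6 of these 8 genes had a higher r with the mean of the luminal than with that of the basal keratins, with medians of 0.711 and 0.652. Jup had r = 0.917 and 0.638, Pkp1 had 0.105 and 0.615, and Ppl had 0.005 and -0.168, given as a description.

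The genes outside the keratin family whose pattern over the 12 libraries was most like the luminal keratins, by Pearson's r with the mean log2(CPM + 1) of Krt8, Krt18 and Krt19 among 9264 genes, were Tfap2c (0.972), Cited1 (0.969), Cnn1 (0.966), Sox10 (0.964) and Actg2 (0.962). Tfap2c and Cited1 encode regulators of transcription found in mammary epithelium, and Cnn1 and Actg2 encode contractile proteins of myoepithelium and smooth muscle. Epcam was at place 145 in this order with r = 0.823. For the mean of the basal keratins Krt14, Krt15 and Krt17 the nearest were Lgals7 (0.924), Amigo3 (0.923), Fam83f (0.902), Ccne2 (0.883) and Fxyd3 (0.882). Lgals7 encodes a galectin of stratified epithelia such as skin. Tp63 was at place 2057 with r = 0.471. After the mean of each diet was taken off, r was 0.963 to 0.974 for the first group and 0.883 to 0.937 for the second. The 12 libraries share the mixture of tissues in each gland, and r is given as a measure of likeness without a test. Between the diets 0 of these 10 genes had an adjusted p under 0.05 (edgeR, Benjamini-Hochberg adjustment).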

How the data were processed

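RNA of 12 whole rat mammary glands (6 HFB, 6 CTL) was analysed. The authors deposited raw read counts per gene, 16511 genes by Entrez identifier, without normalization. The submitters' processing notes name bcl2fastq, CASAVA 1.8, TopHat, DESeq and the rn4 build, with no roles. The counting program and the use of strand are not given in the sources used here. Symbols came from the RefSeq gene table of GRCr8 (16351 genes matched). The replicate number is the library number in the label. Pairs of libraries within a diet differed beyond sampling noise (30 pairs, smallest chi-square per degree of freedom 6.69).

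Counts were fitted with edgeR 4.0.16 in R 4.3.3 (TMM, filterByExpr, quasi-likelihood test, Benjamini-Hochberg, threshold 0.05), which kept 9382 genes. 2954 genes had 0 counts in all libraries. Correlations used Python 3.11.15 with scipy 1.17.1. The tests were tried on simulated data, and no result of those trials is used here. Alternatives were DESeq2 1.42.0, limma 3.58.1, other scalings and filters, Epcam as a covariate and leaving out each library, and, after the data had been seen, leaving out 4 libraries with over 40 counts of hair follicle genes or the 3 with the most counts of lymphoid genes, and total counts in the correlations.

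The keratins and gene lists were chosen with earlier results of these data known. The share of all gene pairs reaching a given r, over genes with a mean of 10 counts or more, was added after the data had been seen. Since Krt5 and Krt7 were not analysed here, the ratios and the planned family of 36 relations were reduced to 6 keratins and 21 relations, and the ratio of Krt8 plus Krt18 was taken over Krt14. Named were the listed keratins, other keratins with a mean of 3 counts or more, the 3 most abundant genes and the 2 with the smallest p of each list (luminal epithelium, basal and myoepithelium, keratin anchoring, epidermis, hair follicle, mesothelium, adipocyte, skeletal muscle, lymphoid, red blood cell, endothelium), and the 5 genes most like each keratin set. Genes singled out beyond this rule (Tp63, Ivl, Cldn3, Krt9, Krt24, Krt28 and Krt85) were chosen after their values were seen.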

Additional observations from a re-analysis of the deposited data

Results flagged for a closer look

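The gap between the highest or lowest library and the nearest other library of its diet, relative to the range of the diet, was examined in 64 groups of 6 libraries. The measures were the levels of the 6 keratins, Epcam and Tp63, the sums of the luminal and basal keratins, their ratios on the log2 and the linear scale, the 6 ratios between genes, the summed level of each of the 11 gene lists and the total counts, each within HFB and within CTL. Dixon's critical value of 0.625 was passed in 17 groups. About 1 in 20 groups, or 3.2, would pass it by chance if the values were normal and the groups independent. Many of the measures share genes and glands, and their distribution was not tested, so no excess over 3.2 is claimed. The values are given without an explanation.

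For the keratins, 5 such gaps were seen. HFB 1 had a luminal to basal ratio of 7.40 on the linear scale, and the next highest HFB library, HFB 4, had 3.09. Krt8 plus Krt18 over Krt14 was 33.8 in HFB 1 on that scale and 8.44 in HFB 5, the next highest. HFB 1 had 4.50 counts of Krt15 per count of Krt14, and the next highest HFB library, HFB 6, had 2.36. Both of these values over Krt14 rested on 4 counts of Krt14 in HFB 1. CTL 8 had 0.477 counts of Krt19 per count of Krt8, and the next lowest CTL library, CTL 10, had 0.567. CTL 14 had 2.47 counts of Krt8 per count of Epcam, and the next highest CTL library, CTL 11, had 1.52. No level of a single keratin and no keratin sum had such a gap in either diet, and neither did the luminal to basal ratios on the log2 scale.

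Among the gene lists, CTL 14 stood apart in the lymphoid sum with 1084 CPM (next CTL 9, 73.0 CPM), the adipocyte sum with 13925 CPM (next CTL 10, 28415 CPM), the endothelium sum with 268 CPM (next CTL 11, 108 CPM) and the keratin anchoring sum with 570 CPM (next CTL 11, 413 CPM). HFB 6 stood apart in the lymphoid sum with 870 CPM (next HFB 1, 335 CPM) and the endothelium sum with 259 CPM (next HFB 4, 97.4 CPM). CTL 11 had 71.2 CPM in the hair follicle sum (next CTL 8, 22.5 CPM) and 8.01 CPM in the mesothelium sum (next CTL 9, 2.61 CPM). The red blood cell sum was 92740 CPM in HFB 2 (next HFB 5, 33126 CPM) and 57591 CPM in CTL 9 (next CTL 11, 14654 CPM).

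Total counts were 2320270 (rounded) in HFB 1, against 2629160 in the next lowest HFB library, HFB 2, and 2944680 in CTL 7, against 2570080 in the next highest CTL library, CTL 8.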

How the results depend on the processing

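In edgeR, DESeq2 and limma voom, in the other scalings and filters, with Epcam as a covariate and in all fits without libraries, 0 genes had an adjusted p under 0.05 after Benjamini-Hochberg adjustment. At an unadjusted p under 0.05 there were 220 genes in edgeR with all libraries, 613 in limma voom with sample quality weights, 434 with Epcam as a covariate, 86 without the 4 libraries high in hair follicle genes and 565 without the 3 high in lymphoid genes. Leaving out each library in turn gave 135 to 587 genes, with 378 without HFB 1, 389 without HFB 4, 135 without HFB 5, 141 without CTL 7 or CTL 10, 137 without CTL 11 and 587 without CTL 14.

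No keratin passed the adjusted threshold in any fit. At an unadjusted p under 0.05 Krt18 passed in limma voom, with a log2 fold change of -1.11, where 613 of 9382 genes passed. In edgeR with all libraries 0 keratins passed. Directions were often reversed. The log2 fold changes with Epcam as a covariate were 0.68 for Krt8, 0.56 for Krt18, 0.56 for Krt19, 0.34 for Krt14, 0.64 for Krt15 and 0.26 for Krt17. Epcam was lower after HFB and had a positive r with each keratin, which by itself moves these values up. Without the libraries high in hair follicle genes they were 0.27 for Krt8, 0.16 for Krt18, 0.046 for Krt19, 0.26 for Krt14, 0.17 for Krt15 and 0.081 for Krt17, and without those high in lymphoid genes 0.074 for Krt8, 0.067 for Krt14 and 0.0075 for Krt17, while Krt18 (-0.26), Krt19 (-0.056) and Krt15 (-0.099) were not reversed. Krt8 was at 0.00098 in edgeR with DESeq2 size factors and at 0.0017 in DESeq2. Leaving out each library gave -0.32 to 0.22 for Krt8 (reversed in 6 of 12 fits), -0.66 to 0.086 for Krt18 (3), -0.51 to 0.033 for Krt19 (1), -0.53 to 0.16 for Krt14 (3), -0.73 to 0.24 for Krt15 (2) and -0.78 to 0.23 for Krt17 (1). Without CTL 14 all 6 were reversed. The cause was not tested.

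The difference of the luminal to basal ratio ranged from -0.35 to 0.18 (log2) when each library was left out and was 0.053 without the libraries high in hair follicle genes, and that of Krt8 plus Krt18 over Krt14 ranged from -0.48 to 0.26 and was 0.17. Without the libraries high in lymphoid genes the differences were -0.46 and -0.65, the largest of all settings, against -0.041 and -0.049 with all libraries. With 2 CPM added or means of log2(CPM + 1) neither was reversed, and the wider ratio was not reversed without Krt17 and Krt15. The ratio per kb of coding length was not run. Of the 21 relations, 8 by r and 6 by rho had an adjusted p under 0.05 without the libraries high in lymphoid genes, against 18 and 17 with all, 20 and 15 without those high in hair follicle genes and 19 and 18 with total counts. Both sets of libraries were left out after the data had been seen, and these counts say nothing on the role of lymphoid tissue or hair follicles. With the filter of 10 counts in all libraries Krt14 and Krt17 were not tested. A paired analysis was not possible, as HFB and CTL glands share no library number or litter. At this depth, 3 counts limit what can be seen of the scarce keratins.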

Other observations

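Genes of the other tissues in the gland were read beside the keratins. Of the adipocyte list 5 of 5 genes passed the filter, and their sum was 17220 CPM (HFB 6), 30558 CPM and 33607 CPM (HFB 5) after HFB and 13925 CPM (CTL 14), 28669 CPM and 33103 CPM (CTL 9) after CTL. HFB 6 and CTL 14, the glands with the lowest adipocyte sums of their diets, were the highest of their diets in Krt8, Krt14, Krt15, Krt17, Krt18 and Krt19. All 5 genes had a negative r with the mean of the luminal keratins, between -0.704 and -0.463, given as a description. Fabp4, Adipoq and Cidec, the most abundant, had log2 fold changes of 0.083, -0.076 and 0.070, and Lep, which with Fabp4 had the smallest p, had -0.13.

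Of the skeletal muscle list 4 of 5 genes were analysed and passed the filter, with sums of 257 CPM (HFB 1), 1516 CPM and 4555 CPM (HFB 6) after HFB and 126 CPM (CTL 10), 962 CPM and 4035 CPM (CTL 11) after CTL. All 4 were higher after HFB, where 4694 of all 9382 genes were, with log2 fold changes of 0.42 for Acta1, 0.91 for Ckm and 0.38 for Tnnt3, the most abundant. Of the red blood cell list 5 of 5 genes were higher after HFB, beside the same 4694 of all 9382, with a median log2 fold change of 0.93. The most abundant were Hbb (0.78), Hba-a1 (1.01) and Hba-a2 (1.00). Of the endothelium list 2 of 3 genes were analysed, Pecam1 (0.11) and Cdh5 (-0.62). Adjusted p was 0.999 for all of these genes (edgeR, Benjamini-Hochberg adjustment). Of the mesothelium list 2 of 4 genes were analysed and none passed the filter. Msln was the more abundant, and their sum was at most 8.01 CPM, in CTL 11. Their part in the keratin levels was not tested.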
